A study of Mus musculus with 12 samples.

Results

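The genes examined here are 8 genes of antigen presentation by major histocompatibility complex (MHC) class II in mouse bone marrow cultures, chosen by symbol from the culture count data: Cd74, H2-Aa, H2-Ab1, H2-Eb1, H2-DMa, H2-DMb1, Ciita and Cd86. They are 8 of 55401 gene identifiers counted in 8 culture libraries, and all 8 were among the 14030 genes that passed the filter on low counts. The study deleted Impdh2, which encodes an enzyme of guanine nucleotide synthesis, to examine its role in limb development and in osteoclast formation. Of its 12 libraries, the 8 used here came from bone marrow of Wt mice or of mice lacking Impdh2 in the myeloid lineage (LysM-cKO), titled R40D3 or R0D3, with 2 libraries in each of 4 groups. The name LysM-cKO refers to the lysozyme M promoter, which is active in several myeloid cell types, and whether the Wt mice carried a Cre or a floxed allele is not given in the labels, nor is the age of the mice. The labels' protocols carry the same text for all cultures, although the titles differ. The text gives 3 days of growth in L929 cell supernatant, a source of the macrophage growth factor M-CSF equivalent to 20 ng/ml. It then gives reseeding and stimulation with 40 ng/ml of RANKL, the cytokine that turns macrophages into osteoclasts. Whether the cultures titled R0D3 received RANKL is not stated there. All 8 samples carry the same treatment label and the titles are not spelled out, so that R40 and R0 stand for RANKL doses is an inference from the protocol, and the titles are used as names.

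MHC class II molecules are cell surface proteins that show peptides from engulfed material to CD4+ T cells. An alpha chain and a beta chain are built in the endoplasmic reticulum around the invariant chain, which blocks the groove until proteases remove it in the endosome, where H2-DM exchanges the remaining fragment for peptides. Their genes are switched on together by CIITA, a coactivator that does not bind DNA itself but joins RFX, CREB and NF-Y proteins already seated on the conserved X and Y boxes of class II promoters. Macrophages, dendritic cells and B cells are the usual presenting cells, and interferon gamma is the best known inducer of Ciita in macrophages.

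H2-Aa (ENSMUSG00000036594) and H2-Ab1 (ENSMUSG00000073421) encode the alpha and beta chains of the I-A molecule, and H2-Eb1 (ENSMUSG00000060586) the beta chain of I-E. In GRCm38 with GENCODE M21 they lie together on chromosome 17, H2-Ab1 at chr17:34257689-34269419 on the plus strand, H2-Aa at chr17:34282744-34287823 on the minus strand and H2-Eb1 at chr17:34305867-34316674 on the plus strand. H2-DMa (chr17:34119541-34139101) and H2-DMb1 (chr17:34153072-34160230), both on the plus strand, are in the same region. Ciita (chr16:10480059-10528418, plus strand) and Cd86 (chr16:36603869-36666081, minus strand) are on chromosome 16.

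RefSeq promoter windows, running from 250 bases before to 50 bases after the start on GRCm38.p6, were matched for 4 of the 8 genes, H2-Aa, H2-Eb1, H2-DMa and H2-DMb1. The 130 bases before the start of 2 classical chains are shown because both hold the pair of boxes through which RFX and NF-Y are known to act on class II genes. Capitals mark an X-box-like stretch (CTNGNAAC) followed by the Y-box core (TGATTGG), and the sequences lie at chr17:34287824-34287953 on the minus strand for H2-Aa and chr17:34305737-34305866 on the plus strand for H2-Eb1.
H2-Aa: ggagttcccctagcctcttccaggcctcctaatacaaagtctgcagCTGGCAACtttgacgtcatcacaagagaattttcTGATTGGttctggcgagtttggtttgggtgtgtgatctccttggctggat
H2-Eb1: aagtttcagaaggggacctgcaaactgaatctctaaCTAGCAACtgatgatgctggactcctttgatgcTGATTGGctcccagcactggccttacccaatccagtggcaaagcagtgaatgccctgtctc
The X-box-like stretch began 84 bases before the start in H2-Aa and 94 in H2-Eb1, and 26 and 25 bases separated it from the Y-box core. H2-DMb1 held the same pair, 26 bases apart with the X-box-like stretch 97 bases before the start, whereas neither of the 2 windows of H2-DMa held it. The letters and the allowed gap of 10 to 30 bases were chosen after the sequences had been seen. Searched on both strands of 32851 windows of this length, the X-box-like letters occurred in 13.2%, the Y-box core in 7.82% and the pair in 0.0761% (25 windows). The 2 motifs do not overlap each other, and a match describes letters only.

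The culture libraries held 16009146 to 19221865 counts, so that 1 count equalled 0.0523 to 0.0622 CPM (the count scaled to a common library size), and replicates of every group differed by more than sampling noise. The labels do not say whether replicates came from separate mice, so p-values measure only the spread between these samples. Impdh2 itself stood at 7.36 and 7.03 CPM in LysM-cKO R0D3 and 7.72 and 8.38 in LysM-cKO R40D3, against 22.3 and 28.2 and 25.7 and 27.7 in Wt, and fell by 1.81 and 1.73 on the log2 scale (edgeR adjusted p = 0.0324 and 0.0386), calls that were lost when any of the 4 libraries compared was left out. Of 11 osteoclast markers, all 11 rose from R0D3 to R40D3 in both genotypes, where 11.4% of all genes tested rose in Wt and 6.99% in LysM-cKO. Their sum went from 325 to 471 CPM to 13272 to 38999. The 8 macrophage markers summed to 7256 to 8826 CPM, a sum carried by a few abundant genes. Of these 8, Cd14, a coreceptor for lipopolysaccharide, fell in both genotypes (log2 -1.07 and -1.13, edgeR adjusted p = 0.0038 and 0.0052), Mertk fell in Wt and Fcgr1 in LysM-cKO, and with the replicate number as a block 5 fell in Wt and 3 in LysM-cKO. Of all genes tested 5.52% fell in Wt and 3.15% in LysM-cKO, and with the block 11.6% and 8.22%. In bulk RNA a smaller number of cells of a type and less RNA per cell cannot be told apart.

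Per kilobase of exon, Cd74 was the most abundant of the 8 genes in every group, with group means of 40.1 CPM per kb in Wt R0D3, 86.6 in Wt R40D3, 23.8 in LysM-cKO R0D3 and 52.0 in LysM-cKO R40D3. The 3 classical chain genes had similar levels per kb, from 7.90 to 9.84 in Wt R0D3 and from 15.5 to 18.2 in Wt R40D3. H2-DMb1, the beta chain of H2-DM, exceeded its partner H2-DMa in every group, at 13.8 against 4.36 CPM per kb in Wt R0D3, although 22.7% of the 50-base windows of its exons also occur in H2-DMb2. Ciita was lowest, at 0.0840 to 0.309 CPM per kb. In Wt R0D3 the order was thus Cd74, H2-DMb1, H2-Eb1, H2-Ab1, H2-Aa, Cd86, H2-DMa and Ciita, in which the replicates of the neighbours H2-Eb1, H2-Ab1 and H2-Aa overlapped and those of the other neighbours did not. In Wt R40D3 H2-DMb1 stood below all 3 classical chains.

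**Figure D1:**
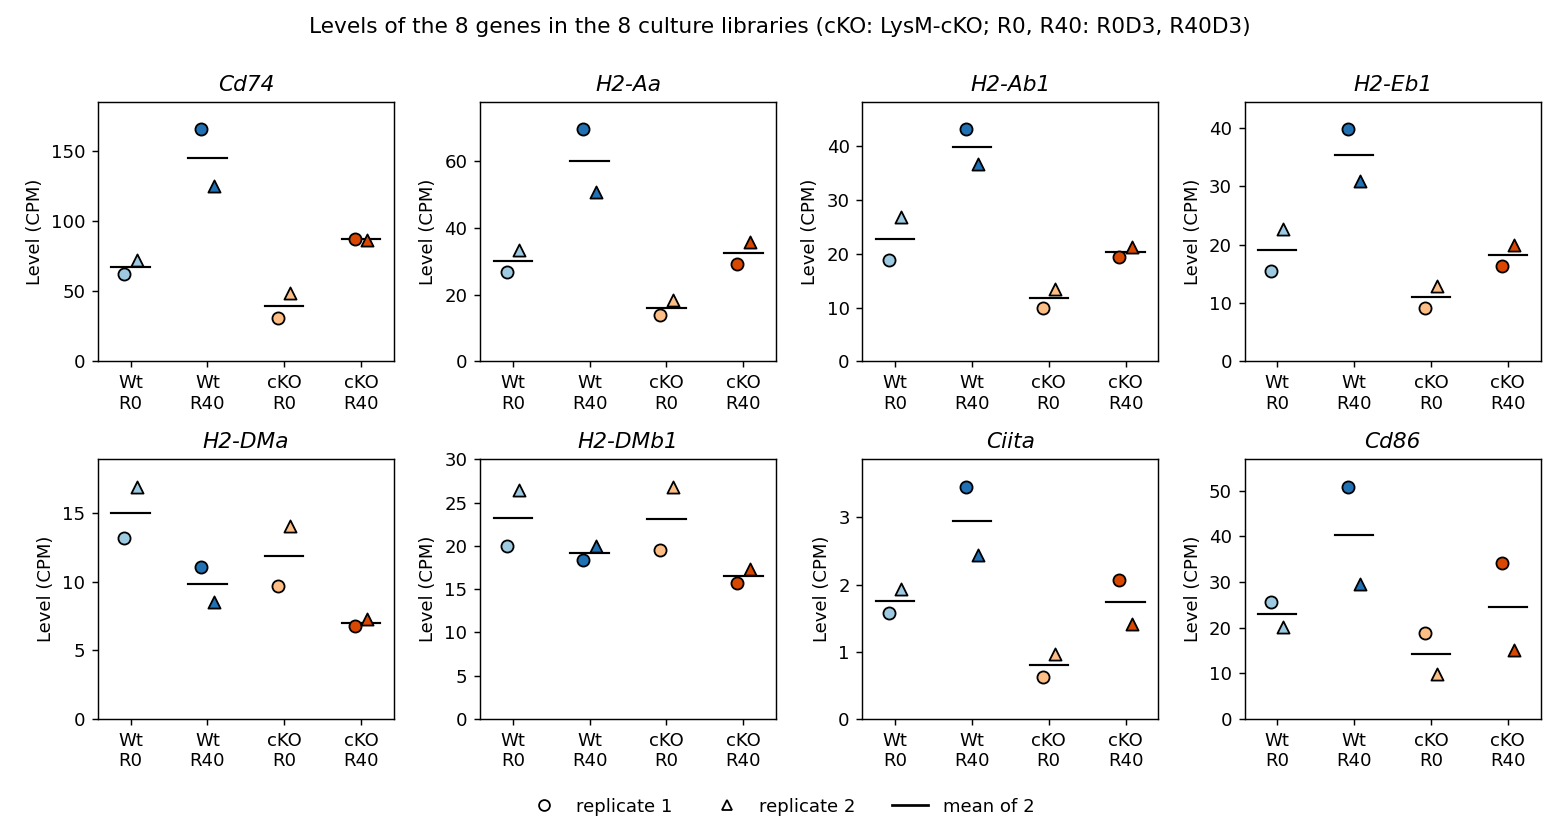
Level in CPM (vertical axes, linear, from 0) of each of the 8 genes in the 8 culture libraries. Circles are replicate 1, triangles replicate 2 and bars the mean of 2. Cd74, H2-Aa, H2-Ab1, H2-Eb1 and Ciita were higher in both R40D3 libraries than in both R0D3 libraries of each genotype and lower in LysM-cKO than in Wt at both titles, H2-DMa and H2-DMb1 were lower at R40D3, and Cd86 was higher in replicate 1 than in replicate 2 of all 4 groups.

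The classical chains and the invariant chain rose in Wt from R0D3 to R40D3 by 0.81 to 1.11 on the log2 scale. H2-Aa was at 26.7 and 33.3 CPM in the Wt R0D3 libraries (replicates 1 and 2) and at 69.5 and 50.8 in Wt R40D3. Both R40D3 libraries lay above both R0D3 libraries, replicate 1 by more than replicate 2. The difference was 1.01 on the log2 scale (SE 0.21, edgeR adjusted p = 0.0159), or 2.01-fold. In LysM-cKO, H2-Aa was at 13.8 and 18.4 CPM in R0D3 and 29.2 and 35.9 in R40D3, again without overlap, and rose by 1.02 on the log2 scale (SE 0.22, edgeR adjusted p = 0.0280). Its LysM-cKO R40D3 libraries overlapped the Wt R0D3 libraries in level.

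H2-Ab1 was at 18.8 and 26.7 CPM in Wt R0D3, 43.1 and 36.6 in Wt R40D3, 9.94 and 13.5 in LysM-cKO R0D3 and 19.5 and 21.2 in LysM-cKO R40D3. R40D3 was above R0D3 without overlap in each genotype. The rise passed in Wt (log2 0.81, SE 0.20, edgeR adjusted p = 0.0312) and missed in LysM-cKO (log2 0.80, SE 0.21, adjusted p = 0.0601), where it passed with the replicate number as a block (adjusted p = 0.0165). H2-Eb1 was at 15.6 and 22.7 CPM in Wt R0D3, 39.7 and 31.0 in Wt R40D3, 9.08 and 12.98 in LysM-cKO R0D3 and 16.3 and 20.0 in LysM-cKO R40D3. As with the other chains the R40D3 libraries were the higher ones in each genotype. It rose in Wt (log2 0.89, SE 0.24, edgeR adjusted p = 0.0417) and did not pass in LysM-cKO (log2 0.72, SE 0.26, adjusted p = 0.136, and 0.0509 with the block).

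Cd74 (ENSMUSG00000024610, chr18:60803848-60812652, plus strand), the invariant chain, which occupies the groove of newly made class II molecules, was at 62.4 and 72.1 CPM in Wt R0D3 and 166 and 125 in Wt R40D3, and at 31.0 and 48.7 in LysM-cKO R0D3 and 87.7 and 86.9 in LysM-cKO R40D3. The LysM-cKO R0D3 libraries were the lowest of the 8 and the Wt R40D3 libraries the highest. Cd74 rose 2.16-fold in Wt (log2 1.11, SE 0.21, edgeR adjusted p = 0.0124) and 2.19-fold in LysM-cKO (log2 1.13, SE 0.22, adjusted p = 0.0197). Replicate number 1 showed the larger rise in both genotypes, 1.41 against 0.80 in Wt and 1.498 against 0.83 in LysM-cKO on the log2 scale.

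The H2-DM genes, whose product loads peptides onto class II molecules in the endosome, did not follow the classical chains. H2-DMa (ENSMUSG00000037649) was at 13.2 and 16.9 CPM in Wt R0D3, 11.1 and 8.55 in Wt R40D3, 9.71 and 14.1 in LysM-cKO R0D3 and 6.77 and 7.27 in LysM-cKO R40D3. Its R40D3 libraries were the lower ones in both genotypes, without overlap. The difference was -0.61 in Wt (SE 0.23, edgeR adjusted p = 0.120) and -0.76 in LysM-cKO (SE 0.24, adjusted p = 0.0985), the latter passing with the block (-0.75, adjusted p = 0.0426). H2-DMb1 (ENSMUSG00000079547) was at 20.0 and 26.4 CPM in Wt R0D3, 18.4 and 20.0 in Wt R40D3, 19.5 and 26.8 in LysM-cKO R0D3 and 15.8 and 17.3 in LysM-cKO R40D3. The Wt groups touched at 20.0 CPM and the LysM-cKO groups were separate. Its difference was -0.27 in Wt (SE 0.19, edgeR adjusted p = 0.399) and -0.48 in LysM-cKO (SE 0.19, adjusted p = 0.178, and 0.0264 with the block). H2-DMa shares 360 exonic bases, 10.4% of its exons, with Brd2 on the opposite strand, and since the use of strand in counting is not given in the sources used here, reads of both genes could be mixed.

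Ciita (ENSMUSG00000022504), the class II coactivator, was the least abundant gene of the set, with 11 to 66 counts per library, and 3.45% of its exonic bases are shared with Dexi on the opposite strand. It was at 1.57 and 1.93 CPM in Wt R0D3, 3.45 and 2.44 in Wt R40D3, 0.632 and 0.970 in LysM-cKO R0D3 and 2.06 and 1.42 in LysM-cKO R40D3. Its libraries had the same arrangement as those of the classical chains, with R40D3 above R0D3 and LysM-cKO below Wt without overlap. Neither rise passed, at log2 0.77 in Wt (95% interval 0.01 to 1.53, edgeR adjusted p = 0.162) and 1.13 in LysM-cKO (0.16 to 2.11, adjusted p = 0.149).

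Cd86 (ENSMUSG00000022901), the costimulatory ligand of CD28 on T cells, was at 25.6 and 20.3 CPM in Wt R0D3, 50.8 and 29.6 in Wt R40D3, 18.9 and 9.76 in LysM-cKO R0D3 and 34.1 and 15.03 in LysM-cKO R40D3. Replicate 1 was the higher library in every group, and the LysM-cKO groups overlapped. Without the block the differences did not pass (log2 0.81, SE 0.44, edgeR adjusted p = 0.267 in Wt, and 0.78, SE 0.46, adjusted p = 0.3596 in LysM-cKO). With the replicate number as a block Cd86 rose in both genotypes (0.77, adjusted p = 0.0094, and 0.76, adjusted p = 0.0187). The 10 dendritic cell markers, among which Clec10a and Itgax had the highest levels, also summed higher in replicate 1 than in replicate 2 of every group, at 268 and 176 CPM in Wt R0D3, 275 and 192 in Wt R40D3, 211 and 125 in LysM-cKO R0D3 and 233 and 147 in LysM-cKO R40D3. The neutrophil markers followed the replicate number in the same direction, at 291 and 113, 377 and 81.6, 151 and 82.2 and 138 and 62.2 CPM in the same order of groups, and the part of either list in the Cd86 values was not tested.

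Counted over the set, 4 of 8 genes passed from R0D3 to R40D3 in Wt, all higher (Cd74, H2-Aa, H2-Ab1 and H2-Eb1), where 11.4% of all genes tested passed as higher and 16.9% in either direction. In LysM-cKO 2 of 8 passed (Cd74 and H2-Aa), where 6.99% of all genes tested passed as higher and 10.1% in either direction. With the block the counts were 5 in Wt, all higher, where 16.7% of all genes were called higher and 28.3% in either direction. In LysM-cKO they were 4 higher, where 13.0% of all genes were called, and 2 lower, where 8.22% were called, together 6 against 21.3%. The median log2 difference of the 8 genes was 0.81 in Wt and 0.79 in LysM-cKO, with 0.01 for all genes tested in both. R40D3 lay above R0D3 without overlap for 6 of 8 genes in Wt (32.9% of all genes), for 5 of 8 in LysM-cKO (27.3%) and for the same 5 in both (20.4%).

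The calls depended on single libraries. In Wt the count of 4 became 0 without R0D3 replicate 1, 1 without R0D3 replicate 2, 0 without R40D3 replicate 1 and 2 without R40D3 replicate 2. In LysM-cKO the count of 2 became 0 without R0D3 replicate 1, 1 without R0D3 replicate 2 and 0 without R40D3 replicate 2, and was again 2 without R40D3 replicate 1. The direction held in each of these fits, the difference of H2-Aa ranging from 0.73 to 1.17 in Wt and from 0.82 to 1.24 in LysM-cKO on the log2 scale.

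**Figure D2:**
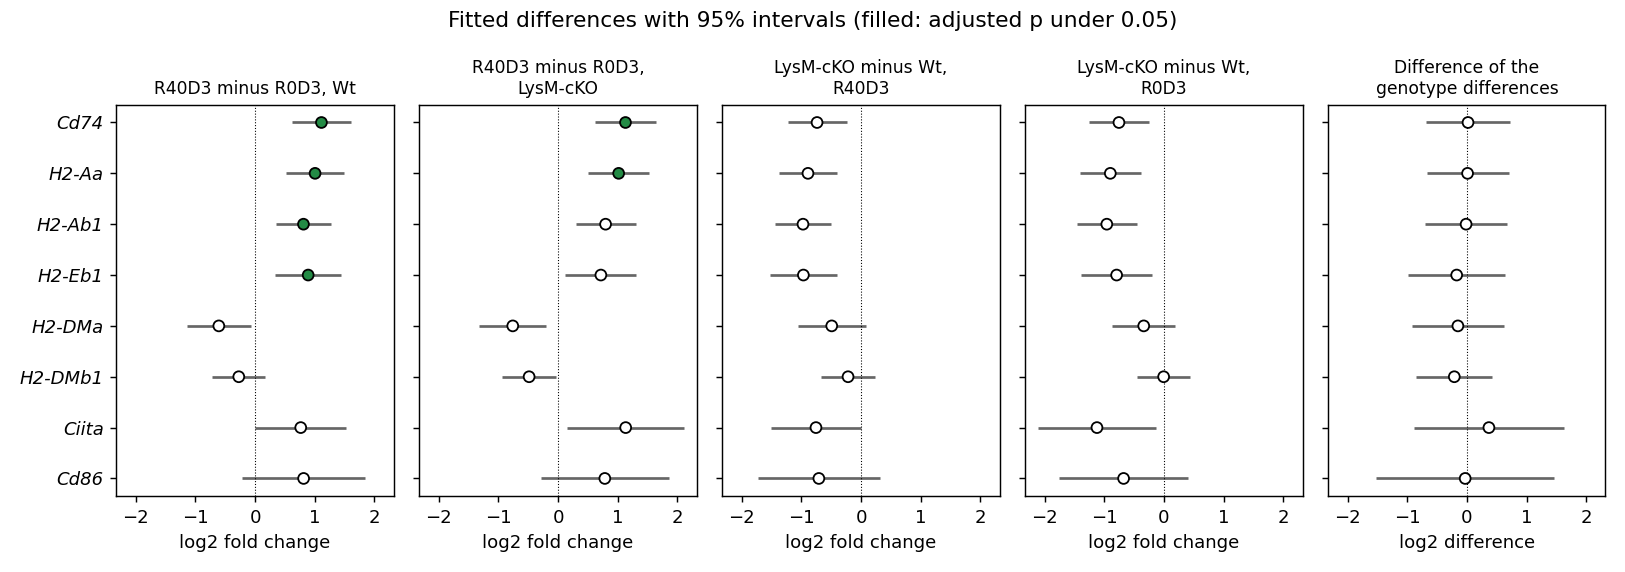
Fitted log2 differences (horizontal axes) of the 8 genes in 5 comparisons from 1 fit of 8 libraries, with 95% intervals as bars and filled points where the adjusted p was under 0.05. Filled points are Cd74, H2-Aa, H2-Ab1 and H2-Eb1 for R40D3 against R0D3 in Wt and Cd74 and H2-Aa in LysM-cKO, and all 8 points of both genotype comparisons lie below 0.

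The LysM-cKO cultures had lower levels of the set than Wt at both titles, without any gene passing the adjusted threshold. At R40D3 the LysM-cKO mean was 60.0% of Wt for Cd74, 54.1% for H2-Aa, 51.02% for H2-Ab1, 51.4% for H2-Eb1, 59.0% for Ciita, 61.1% for Cd86, 71.5% for H2-DMa and 86.0% for H2-DMb1. At R0D3 the corresponding values were 59.3%, 53.6%, 51.4%, 57.7%, 45.8%, 62.4%, 79.1% and 99.6%. By these means the classical chains and Ciita were furthest below Wt and the H2-DM genes nearest to it, with Cd74 and Cd86 close to Ciita at R40D3. Differences between genes were not tested. The log2 differences of H2-Ab1 were -0.97 (SE 0.20, 95% interval -1.44 to -0.50) at R40D3 and -0.96 (SE 0.21, -1.46 to -0.46) at R0D3, and its adjusted p were 0.648 and 0.997. Over the 8 genes adjusted p ran from 0.648 to 0.764 at R40D3, and the median difference was -0.75 at R40D3 and -0.77 at R0D3, against -0.01 and 0.01 for all genes.

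By edgeR 0 of 8 genes passed at either title, where 0.0143% of all genes passed at each. At an unadjusted p under 0.05, 5 of 8 were lower at R40D3 (Cd74, H2-Aa, H2-Ab1, H2-Eb1 and Ciita; 3.47% of all genes) and the same 5 at R0D3 (1.40% of all genes). DESeq2 called 2 lower at R40D3, H2-Ab1 (adjusted p = 0.0274) and H2-Aa (adjusted p = 0.0497), and 0 at R0D3. Among all genes DESeq2 called 23 at R40D3 and 7 at R0D3, in either direction. With the replicate block the count was 0 at both titles (0.214% of all genes passed at R40D3 and 0.0214% at R0D3), and the adjusted p of H2-Ab1 at R40D3 was 0.0678. LysM-cKO lay below Wt without overlap for 7 of 8 genes at R40D3 (18.9% of all genes), 6 of 8 at R0D3 (14.8%) and 5 of 8 at both (4.42%).

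Within a replicate number LysM-cKO was below Wt in both pairs for all 8 genes at R40D3 (34.3% of all genes) and for 7 of 8 at R0D3 (27.7%), and in all 4 pairs for 7 (13.2%). H2-DMb1 was the exception, at 26.8 CPM in LysM-cKO R0D3 replicate 2 against 26.4 in its Wt counterpart. Replicate number 1 had the larger difference at R40D3 for Cd74, H2-Aa, H2-Ab1, H2-Eb1, H2-DMa and, by a small margin, H2-DMb1. For H2-Aa the differences were -1.25 against -0.50. For Cd86 the larger difference was in replicate number 2 at both titles, at -0.98 against -0.58 at R40D3 and -1.05 against -0.44 at R0D3.

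**Figure D3:**
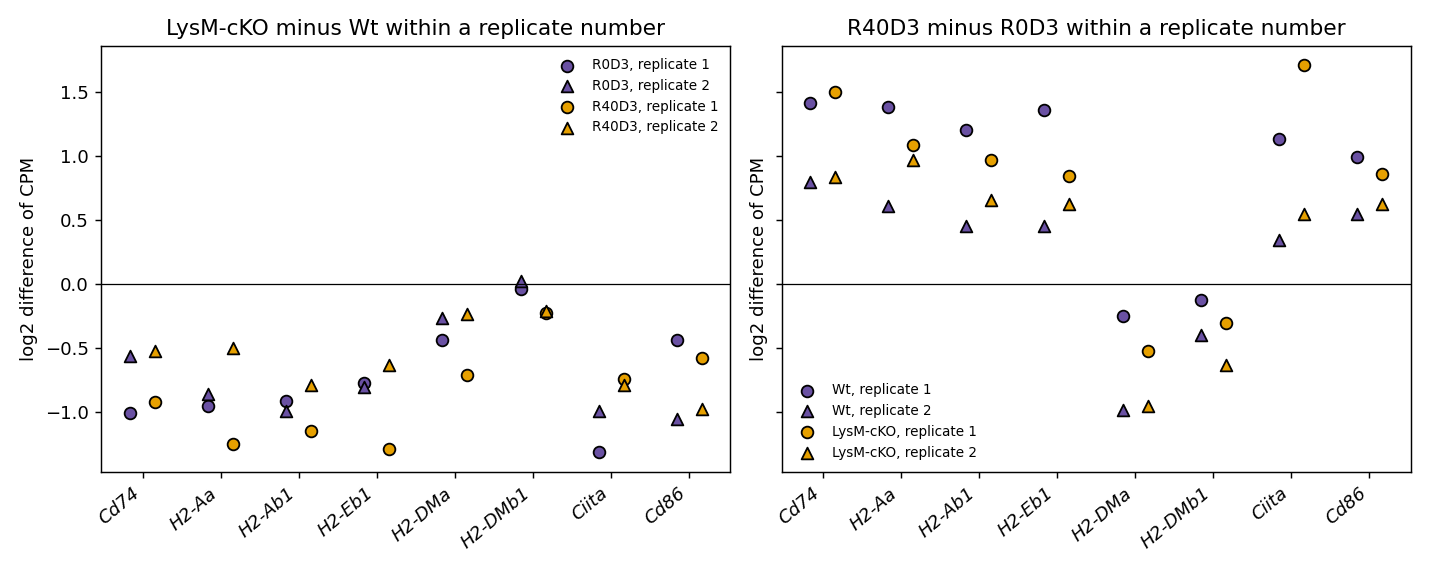
log2 difference of CPM (vertical axis, shared) between libraries of the same replicate number for the 8 genes, LysM-cKO minus Wt on the left and R40D3 minus R0D3 on the right. Circles are replicate 1 and triangles replicate 2. All points on the left lie below 0 apart from H2-DMb1 in R0D3 replicate 2, and on the right H2-DMa and H2-DMb1 lie below 0 in all 4 pairs and the other 6 genes above.

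A contrast averaged over both titles was added after the data had been seen. Without the block it called 0 of 8 genes in edgeR (6 of 8 lower at an unadjusted p under 0.05, against 3.28% of all genes), where 0.0214% of all genes passed. With the replicate block it called 4 lower, H2-Aa (-0.90, adjusted p = 0.0353), H2-Ab1 (-0.97, adjusted p = 0.0216), H2-Eb1 (-0.89, adjusted p = 0.0415) and Cd86 (-0.74, adjusted p = 0.0415), where 0.242% of all genes passed as lower and 0.962% in either direction. Cd74 missed at -0.75 (adjusted p = 0.0519), and DESeq2 without a block called Cd74, H2-Aa, H2-Ab1 and H2-Eb1. Among all genes DESeq2 called 79 in this contrast, in either direction. The blocked count was 0 without Wt R0D3 replicate 1, Wt R0D3 replicate 2, LysM-cKO R40D3 replicate 1 or LysM-cKO R40D3 replicate 2. It was 3 without Wt R40D3 replicate 1, 4 without Wt R40D3 replicate 2, 5 without LysM-cKO R0D3 replicate 1 and 2 without LysM-cKO R0D3 replicate 2.

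Whether the rise from R0D3 to R40D3 differed between genotypes was tested with an interaction term. Its estimate was 0.02 for Cd74 (95% interval -0.69 to 0.72), 0.01 for H2-Aa (-0.68 to 0.70), -0.01 for H2-Ab1 (-0.71 to 0.68) and -0.17 for H2-Eb1 (-0.99 to 0.64) on the log2 scale. Ciita had the widest departure from 0, at 0.37 (-0.88 to 1.62). In edgeR 0 of 8 genes passed and 0 of 8 had an unadjusted p under 0.05, DESeq2 called 0, and among all genes 0 passed and 1.77% had an unadjusted p under 0.05.

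The genes whose profile over the 8 libraries was most like the mean of the z-scored log2 CPM of H2-Aa, H2-Ab1 and H2-Eb1 were Ptdss2 (Pearson r 0.984), Dnal4 (0.967), Med27 (0.966), Rpusd4 (0.963), Tcf3 (0.959) and Sdhaf1 (0.958), as a description over 8 libraries that share groups and replicate numbers. Their ranges were mostly narrower than those of the class II chains: Ptdss2 ran from 21.2 to 28.0 CPM and Sdhaf1 from 3.91 to 9.15, whereas H2-Aa ran from 13.8 to 69.5. Cd74 had an r of 0.967 with this profile, Ciita 0.946, Cd86 0.662, H2-DMa -0.07 and H2-DMb1 -0.18.

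Other genes of antigen presentation were taken from 6 lists of 50 genes, of which 44 were tested. From R0D3 to R40D3 in Wt 2 of the 44 rose and 8 fell, where 11.4% of all genes tested rose and 5.52% fell. In LysM-cKO 2 rose and 2 fell, where 6.99% of all genes rose and 3.15% fell. With the block 4 rose and 14 fell in Wt (16.7% and 11.6% of all genes), and 3 rose and 10 fell in LysM-cKO (13.0% and 8.22%). Between LysM-cKO and Wt 0 of the 44 passed at either title by edgeR, and DESeq2, the blocked fit and an unadjusted threshold of 0.05 gave 0 as well. The contrast averaged over both titles called 0 without the block, with 2 lower at an unadjusted p under 0.05 (3.28% of all genes). With the block it called 1 lower, Cd83 (-0.39, adjusted p = 0.0449), where 0.242% of all genes passed as lower. Of 5 further class II genes, H2-Ea-ps had 0 counts in every library, H2-Oa, H2-Ob and H2-Eb2 stayed under 1 CPM, and H2-DMb2 ran from 0.370 to 1.58 CPM.

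Among the 9 DNA-bound and histone acetylating partners of CIITA, 0 rose in either genotype, and Nfya (log2 -0.38, SE 0.10, edgeR adjusted p = 0.0382) and Creb1 (-0.38, SE 0.11, adjusted p = 0.0472) fell in Wt. Nfya encodes a subunit of NF-Y and Creb1 the factor CREB, and the median of the list was -0.05 in Wt and 0.02 in LysM-cKO. With the block Nfya fell in LysM-cKO as well (-0.36, adjusted p = 0.0098). Rfx5, a subunit of the RFX complex, was at 10.8 and 12.1 CPM in Wt R0D3 and 9.52 and 9.22 in Wt R40D3 (log2 -0.29, adjusted p = 0.432). Of 8 genes of the interferon gamma route Irf8, a myeloid transcription factor, fell in Wt (-0.67, SE 0.14, adjusted p = 0.0161). With the block Jak2, a kinase of the receptor, fell as well (-0.58, adjusted p = 0.0019 in Wt, and -0.44, adjusted p = 0.0102 in LysM-cKO), Irf8 fell in LysM-cKO (-0.47, adjusted p = 0.0111), and Ifngr2, a chain of the interferon gamma receptor, rose in both genotypes (0.24, adjusted p = 0.0231 in Wt, and 0.23, adjusted p = 0.0363 in LysM-cKO).

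Of 8 genes for peptide loading and turnover only Ifi30 rose in both genotypes, and 3 fell in Wt. With the block 6 fell in Wt and 4 in LysM-cKO. Ifi30, the thiol reductase that unfolds disulfide-bonded antigens in the endosome, went from 157 and 177 to 456 and 603 CPM in Wt and from 158 and 201 to 361 and 547 in LysM-cKO. The groups were far apart, and the rises were 1.66 (SE 0.23, edgeR adjusted p = 0.0038) and 1.34 (SE 0.23, adjusted p = 0.0129) on the log2 scale. Ctss, the protease that removes the last part of the invariant chain in many presenting cells, went from 2476 and 2551 to 1671 and 1369 CPM in Wt and fell by 0.73 (SE 0.14, adjusted p = 0.0123). Its difference in LysM-cKO was -0.36 (adjusted p = 0.159). The endosomal proteases Ctsl (-1.19, SE 0.30, adjusted p = 0.0339) and Lgmn (-0.68, SE 0.18, adjusted p = 0.0393) also fell in Wt, and with the block in LysM-cKO (-0.98, adjusted p = 0.000194, and -0.57, adjusted p = 0.0102). The lysosomal proteases Ctsb (-0.87, adjusted p = 0.0101 in Wt, and -0.75, adjusted p = 0.0245 in LysM-cKO) and Ctsd (-0.70, adjusted p = 0.0108, and -0.57, adjusted p = 0.0338) fell in both genotypes with the block alone. So did March1, a ubiquitin ligase that marks class II molecules for turnover, in Wt (-0.59, adjusted p = 0.0112).

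Of 8 other costimulatory or inhibitory ligands 6 were tested, and 2 fell in both genotypes while 0 rose. Cd83, a surface protein of activated presenting cells, went from 121 and 113 to 54.8 and 42.9 CPM in Wt and from 97.1 and 84.3 to 43.1 and 31.2 in LysM-cKO (log2 -1.26, SE 0.18, edgeR adjusted p = 0.0038, and -1.29, SE 0.18, adjusted p = 0.0060). Icosl, the ligand of ICOS on T cells, fell by 1.22 (SE 0.15, adjusted p = 0.0024) and 1.13 (SE 0.15, adjusted p = 0.00525). Cd80, which shares its receptors with Cd86, was at 19.8 and 21.0 CPM in Wt R0D3 and 20.7 and 19.5 in Wt R40D3. In LysM-cKO Cd80 was at 21.8 and 14.7 CPM in R0D3 and 29.2 and 18.8 in R40D3. There R40D3 was higher within each replicate number, although the groups overlapped and the difference was not called. Cd40, the receptor for the CD40 ligand of T cells, fell in Wt with the block alone (-0.64, adjusted p = 0.0403). Of 12 genes of class I presentation, Tap2, a subunit of the peptide transporter, rose in both genotypes (0.77, SE 0.14, adjusted p = 0.0089, and 0.53, SE 0.13, adjusted p = 0.0490), and the median of the list was -0.09 in Wt and -0.01 in LysM-cKO. The rise of Tap2 in LysM-cKO was near the threshold and ran from 0.27 to 0.73 with 1 library left out. With the block the chaperone gene Calr rose in Wt (0.71, adjusted p = 0.00099) and the peptide trimming enzyme gene Erap1 fell in both genotypes (-0.44, adjusted p = 0.0252 in Wt, and -0.46, adjusted p = 0.0276 in LysM-cKO).

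**Figure D4:**
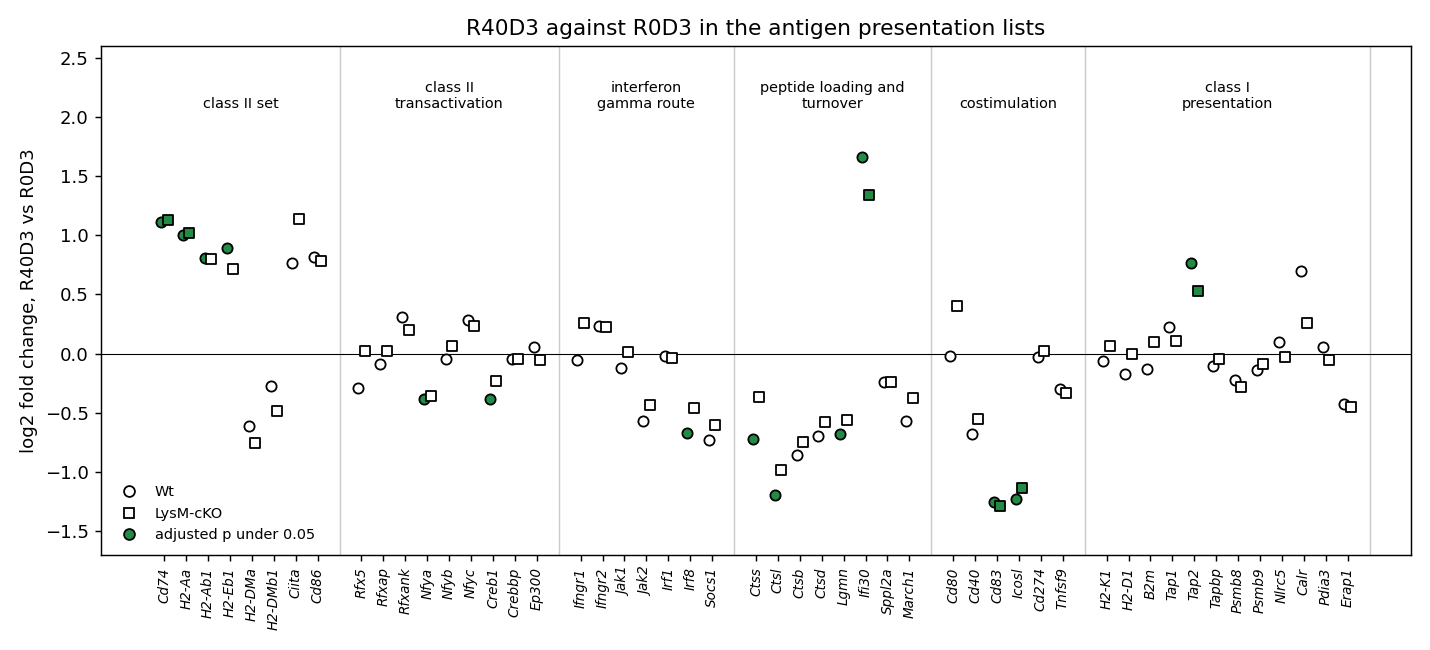
log2 fold change from R0D3 to R40D3 (vertical axis) for the 8 genes of the set and the tested genes of 5 antigen presentation lists (1 gene is not shown), with circles for Wt, squares for LysM-cKO and filled symbols where the adjusted p was under 0.05. The classical chains and Cd74 sit near 1 with Ifi30 and Tap2 as the filled rises outside the set, and the filled symbols below 0 are Nfya, Creb1, Irf8, Ctss, Ctsl, Lgmn, Cd83 and Icosl.

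Several defining markers of the other presenting cells were near 0, and others moved with the title. Of 10 dendritic cell markers 6 (Flt3, Ccr7, Xcr1, Clec9a, Cd209a and Siglech) stayed under 1 CPM in every library, and Itgax fell in both genotypes (log2 -1.57 and -1.71, edgeR adjusted p = 0.0056 and 0.0069). Zbtb46, a transcription factor of classical dendritic cells, ran in the direction of the class II chains, from 0.583 and 0.995 to 3.66 and 4.46 CPM in Wt and from 0.402 and 0.303 to 2.91 and 3.45 in LysM-cKO. It rose in both genotypes (2.36, SE 0.33, edgeR adjusted p = 0.0038, and 3.13, SE 0.40, adjusted p = 0.0047). Clec10a, a lectin of dendritic cells and macrophages, went from 151 and 101 to 238.3 and 156 CPM in Wt and from 115 and 52.4 to 206 and 115 in LysM-cKO. It rose with the block alone (0.64, adjusted p = 0.0051, and 0.97, adjusted p = 0.00098), and Batf3 fell with the block alone (-1.45, adjusted p = 0.0196, and -1.79, adjusted p = 0.0078). Among the B cell markers Ms4a1, Pax5 and Vpreb3 stayed under 1 CPM, and Ighm, the heavy chain of IgM, fell in both genotypes from 36.1 and 41.7 to 15.8 and 14.8 CPM in Wt and from 37.7 and 43.5 to 29.1 and 29.0 in LysM-cKO. The summed B cell list, carried by Ighm, ran from 41.7 to 47.7 CPM at R0D3 and from 18.9 to 34.7 at R40D3. Of its 4 tested genes 2 had a positive and 2 a negative fitted difference in Wt. In LysM-cKO 1 was positive and 3 were negative. The summed dendritic list of R0D3 and R40D3 overlapped in each genotype. The T and NK cell list was nearly all Cd4, whose product is also found on some macrophages, at 111 and 31.1 CPM in Wt R0D3, 453 and 157 in Wt R40D3, 52.4 and 10.4 in LysM-cKO R0D3 and 235 and 85.3 in LysM-cKO R40D3, while Cd3e and Cd3d stayed under 1 CPM. Cd4 rose in both genotypes with the block alone (2.18, adjusted p = 4.2e-05, and 2.52, adjusted p = 5.0e-05). Trac, a segment of the T cell receptor alpha chain, rose in both without it (edgeR adjusted p = 0.0041 and 0.0137), from 2 counts in each Wt R0D3 library to 31 and 34 and from 0 to 18 and 10 in LysM-cKO. The part of these lists in the rise of the class II chains was not tested.

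Markers of several cell types also ran along the genotype. The 10 dendritic cell markers summed to less in LysM-cKO than in the Wt library of the same number and title in all 4 pairs. This sum was carried by Clec10a and Itgax, and of all genes tested 13.2% were lower in all 4 pairs. In edgeR without the block 0 of the 4 tested dendritic markers had an unadjusted p under 0.05 at either title. Batf3 went the other way, at 0.18 in the averaged contrast. All 11 osteoclast markers were lower in LysM-cKO at R40D3 by their fitted values (median log2 -0.65), and they summed to 13272 and 24987 CPM against 26473 and 38999 in Wt. None of the 11 passed without the block (4 were lower at an unadjusted p under 0.05 and DESeq2 called 0), and with it Oscar (-1.02, adjusted p = 0.0028) and Car2 (-0.88, adjusted p = 0.0236) were called lower. In the contrast averaged over both titles the blocked fit called 5 of the 42 markers tested, 2 higher and 3 lower, where 0.962% of all genes passed. Of the 3 lower, 2 were Clec10a (-0.49, adjusted p = 0.0455) and Cd4 (-1.08, adjusted p = 0.0176), and 1 was a neutrophil marker. Of the 2 higher, 1 was Ighm (0.49, adjusted p = 0.0343) and 1 a macrophage marker. Of the 8 macrophage markers 3 were higher and 1 lower in LysM-cKO at R40D3 at an unadjusted p under 0.05 in edgeR without the block. Of all genes 7.47% were under it in either direction. The 7 neutrophil markers summed to less in LysM-cKO than in the Wt library of the same number and title in all 4 pairs, and the 8 stromal fibroblast markers summed to 1531 and 488 CPM in LysM-cKO R0D3 and 1407 and 415 in LysM-cKO R40D3, against 1348 and 1169 and 1562 and 1484 in Wt, replicate 2 of LysM-cKO being low at both titles. In replicate number 1 the stromal sum of LysM-cKO, carried mostly by Col1a1 and Col1a2, lay above Wt at R0D3 and below it at R40D3. The part of these cell type markers in the genotype differences of the class II chains was not tested.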

How the data were processed

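RNA was extracted with TRIzol and made into mRNA libraries, per the labels' protocols. The authors deposited raw whole-number counts per Ensembl gene, in 1 table per replicate number for the cultures. Per the submitters' processing notes FastQC 0.11.2, Trimmomatic 0.36, HISAT2 2.1.0, DESeq2 1.12.4 and GRCm38 were used. The counting tool, its annotation and its strand setting are not given in the sources used here, so reads of overlapping or near-identical genes could have been mixed or divided. The forelimb libraries were not used here.

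The 8 culture libraries were fitted together in edgeR 4.0.16 (filterByExpr, TMM, quasi-likelihood test with legacy = FALSE, two-sided, Benjamini-Hochberg adjustment over 14030 genes, calls at an adjusted p under 0.05), so that 4 groups of 2 share 1 estimate of the spread. SE is the absolute log2 difference divided by the square root of F, and CPM use TMM-scaled library sizes. Of 55401 identifiers 99.5% matched a symbol. Exon lengths, each the union of all annotated exons of a gene, and overlaps came from GENCODE M21. The script was tested on simulated counts. Replicate numbers were taken to pair the samples, because the deposited tables hold 1 replicate number each and libraries with the same number deviated together from their group means in all 6 pairs of groups (r 0.343 to 0.609 across genes). Values from the blocked fit stand beside a named result whose call they alter, and counts of blocked calls beside the lists.

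The 8 genes and the 13 further lists (6 of antigen presentation, 7 of cell types) were chosen with earlier results of these data known. Named were the 8 genes, Impdh2, up to 6 tested genes per list by smallest p in Wt R40D3 against R0D3 or any call, list genes at 0 counts, and the 6 genes most like the classical chains with a mean of at least 5 CPM (log2 CPM with a prior count of 2). Clec10a, Cd80, H2-Oa, H2-Ob, H2-Eb2, the markers under 1 CPM, genes called only with the block and the genes that share exonic bases were named after their values were seen. Values of 2 list genes are not reported here, although counts and sums over their lists include them. Alternatives were another scaling, no filter, legacy = TRUE, the replicate block, only the 4 libraries compared, DESeq2 1.42.0 and leaving out each library.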

Additional observations from a re-analysis of the deposited data

How the results depend on the processing

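With 2 libraries a group, and low counts in Ciita, depth and number of libraries limit the precision of every value. Of 176 values of the 8 genes for R40D3 against R0D3 under the alternatives, 148 kept their direction and their side of the threshold, 21 lost the call, 7 gained it and 0 changed sign. Of 175 genotype values within a title, 170 kept both, 0 lost a call, 2 gained one and 3 changed sign.

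Pairing by replicate number (the replicate block) gave 6 calls in LysM-cKO for R40D3 against R0D3 instead of 2, and 4 in the averaged genotype contrast instead of 0. It changed no call at either title between genotypes. Fitting only the 4 libraries compared gave 0 calls in LysM-cKO, with fewer samples behind the spread. DESeq2 gave 2 calls between genotypes at R40D3 and 4 in the averaged contrast, and the cause was not tested. The count of all genes called moved from 2370 to 3976 in Wt and from 1422 to 2983 in LysM-cKO with the block, from 1422 to 532 with only 4 libraries, and between genotypes from 2 to 30 with the block and 23 by DESeq2 at R40D3, from 2 to 7 by DESeq2 at R0D3 and from 3 to 135 with the block and 79 by DESeq2 in the averaged contrast. Impdh2 was no longer called at R40D3 with library size alone (adjusted p = 0.0501) or at either title with only 4 libraries (0.579 and 0.407). Among the list genes, 3 of the 7 alternatives that kept both replicates lost the call of Tap2 in LysM-cKO. The calls of Ighm in LysM-cKO and Creb1 in Wt were each lost in 2 of 7, and that of Trac in LysM-cKO in 1 of 7.

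Leaving out 1 library at a time gave 0 to 2 calls for R40D3 against R0D3 in each genotype, and 0 to 5 in the averaged contrast with the block. Signs changed only in the genotype difference of H2-DMb1 at R0D3 and in the interaction of every gene but Ciita. None of these values had an unadjusted p under 0.05 in the main edgeR fit. The genotype difference of H2-DMb1 at R0D3 was 0.0079 with library size alone and -0.26 to 0.21 with 1 library left out. The interaction of H2-Ab1 was 0.011 with library size alone and 0.015 without the filter, and that of H2-Aa -0.0019 with the block. With 1 library left out the interaction ran from -0.24 to 0.38 for Cd74, -0.17 to 0.27 for H2-Aa, -0.29 to 0.22 for H2-Ab1, -0.47 to 0.11 for H2-Eb1, -0.37 to 0.14 for H2-DMa, -0.42 to 0.037 for H2-DMb1 and -0.71 to 0.55 for Cd86. Some calls of list genes for R40D3 against R0D3 depended on single libraries too, with no change of sign. In LysM-cKO these were Ifi30, Tap2, Ighm, Fcgr1 and Trac. In Wt they were Nfya, Creb1, Irf8, Ctss, Ctsl, Lgmn, Tap2, Mertk, Itgax and Trac. The lone library left in a group was assumed to vary like the other groups.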
